A study of Mus musculus with 6 samples.

Results

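The Kruppel-like factors compared here were Klf2, Klf3, Klf4, Klf5, Klf6, Klf7, Klf9, Klf10, Klf11 and Klf13, 10 genes chosen by symbol among the 35709 genes of the deposited table. The cells were AML12, a mouse hepatocyte line established from the liver of a mouse carrying a human TGF-alpha transgene, which all groups share. One group of 3 libraries came from cells given a control small interfering RNA (siCtrl, labelled WT in its genotype). The other group of 3 came from cells given a small interfering RNA against Uhrf2 (siUhrf2), which encodes a ubiquitin ligase of chromatin. Both were carried in Lipofectamine RNAiMAX, and total RNA was sequenced after 72 h. The labels do not say whether replicates were separate cultures, so the p-values speak of the spread among these 6 libraries, which may be technical.

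Kruppel-like factors are transcription factors that bind GC-rich and CACCC elements through tandem C2H2 zinc fingers at the C-terminal end, in common with the SP factors. They are sorted by the cofactors that their divergent N-terminal parts recruit. Klf2, Klf4, Klf5, Klf6 and Klf7 are linked to acetyltransferases and mostly activate, Klf3 binds the CtBP corepressors, and Klf9, Klf10, Klf11 and Klf13 bind Sin3 corepressors. In liver and other epithelia, members of the family are known for roles in growth arrest, differentiation, wound responses and lipid or glucose metabolism.

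Because the family binds GC boxes and CACCC elements, stretches of 250 bases before the transcription start given by RefSeq (GRCm38.p6) were read for 8 of the 10 genes, all but Klf5 and Klf10. The RefSeq start differs from the GENCODE gene start in several of them. The window lies wholly inside the GENCODE gene for Klf7 (250 bases), and in part for Klf3 (133 bases), Klf11 (97), Klf2 (29) and Klf6 (7), while those of Klf4, Klf9 and Klf13 lie outside it. The promoters of 5 genes are shown because they span the range of responses described next, the largest rise (Klf4), rises with small spread (Klf9, Klf13), a fall (Klf6) and no detectable difference (Klf3). Each is written 5′ to 3′ on the strand of its gene, and capitals mark the GC box GGGCGG and the CACCC box on either strand.
Klf4 promoter, chr4:55532476-55532725, minus strand: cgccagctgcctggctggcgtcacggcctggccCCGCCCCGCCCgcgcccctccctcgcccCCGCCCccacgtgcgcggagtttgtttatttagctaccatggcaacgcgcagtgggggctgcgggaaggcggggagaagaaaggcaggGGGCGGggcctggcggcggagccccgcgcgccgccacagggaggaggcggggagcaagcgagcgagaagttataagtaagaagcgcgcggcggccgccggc
Klf9 promoter, chr19:23140976-23141225, plus strand: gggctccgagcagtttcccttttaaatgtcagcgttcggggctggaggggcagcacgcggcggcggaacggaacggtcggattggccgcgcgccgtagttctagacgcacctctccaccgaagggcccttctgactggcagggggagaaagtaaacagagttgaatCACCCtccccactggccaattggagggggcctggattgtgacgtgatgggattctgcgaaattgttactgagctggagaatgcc
Klf13 promoter, chr7:63938916-63939165, minus strand: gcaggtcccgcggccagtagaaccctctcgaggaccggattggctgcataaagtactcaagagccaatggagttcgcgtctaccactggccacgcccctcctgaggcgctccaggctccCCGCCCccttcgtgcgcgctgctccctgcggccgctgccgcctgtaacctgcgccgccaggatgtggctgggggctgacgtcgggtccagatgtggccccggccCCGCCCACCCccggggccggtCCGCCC
Klf6 promoter, chr13:5861239-5861488, plus strand: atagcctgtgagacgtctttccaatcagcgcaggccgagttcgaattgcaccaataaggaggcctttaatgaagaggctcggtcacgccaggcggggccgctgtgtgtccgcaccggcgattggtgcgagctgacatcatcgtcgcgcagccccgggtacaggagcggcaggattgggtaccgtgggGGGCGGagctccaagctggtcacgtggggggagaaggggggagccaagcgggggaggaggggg
Klf3 promoter, chr5:64803271-64803520, plus strand: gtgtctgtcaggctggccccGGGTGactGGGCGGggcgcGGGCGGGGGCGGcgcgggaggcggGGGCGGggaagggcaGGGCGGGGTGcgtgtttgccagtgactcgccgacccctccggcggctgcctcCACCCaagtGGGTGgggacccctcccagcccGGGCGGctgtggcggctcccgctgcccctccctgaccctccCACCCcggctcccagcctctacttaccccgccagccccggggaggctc
GC boxes (GGGCGG or CCGCCC) stood in 7 of the 8 promoters, all but that of Klf9, against 32.7% of 32851 mouse promoter windows of the same length. The Klf3 window held 6 of them and the windows of Klf4 and Klf11 4 each. A CACCC box (CACCC or GGGTG) was found in 5 of 8, against 52.0% of all windows, with 5 in Klf3 and 3 in Klf7. In Klf13 a GC box and a CACCC box overlap by 1 letter. The 8 windows were rich in G and C, from 59.2% in Klf7 to 78.4% in Klf3, where the median of all windows was 52.4%. A CCAAT box (CCAAT or ATTGG) was present in 4 of 8 against 33.8% of all windows, namely in Klf6, Klf9, Klf11 and Klf13. The CRE core TGACG or CGTCA was present in Klf2, Klf4, Klf9 and Klf13 against 17.8% of all windows, and the E-box CACGTG in Klf4, Klf6 and Klf11 against 6.02%. One form of the serum response element, searched on both strands, was in 0 of the 8 and in 0.0609% of all windows. These matches describe letters in a window and are not evidence of binding.

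Levels were compared as FPKM, which divides reads by transcript length and library total. The family was dominated by a few genes. Klf6 was the most abundant member at 119.9 ± 2.37 FPKM in siCtrl and 107.9 ± 3.57 in siUhrf2 (SD, n = 3), followed by Klf3 at 90.6 (89.6 to 92.3) and 90.0 ± 4.42 and by Klf13 at 49.4 ± 0.422 and 64.2 ± 2.58 FPKM. Klf10 came next at 28.5 ± 2.92 and 35.8 ± 2.81 FPKM. In siCtrl, Klf7 at 19.3 ± 0.633 and Klf9 at 19.2 ± 0.609 FPKM overlapped in range, and every other pair of neighbours in the order was separate. In siUhrf2, Klf9 at 23.8 ± 0.243 stood above Klf7 at 21.7 ± 0.381 FPKM, and Klf7 and Klf5 at 21.1 ± 1.71 FPKM overlapped. Klf4 and Klf11 exchanged places at the lower end. Klf4 was below Klf11 in siCtrl, with 4.52 ± 0.460 against 7.93 ± 0.203 FPKM, and above it in siUhrf2, with 11.9 ± 0.498 against 6.91 ± 0.573 FPKM. Klf2 was the one member under a mean of 1 FPKM, at 0.0741 ± 0.0168 and 0.0266 ± 0.00602 FPKM.

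**Figure D1:**
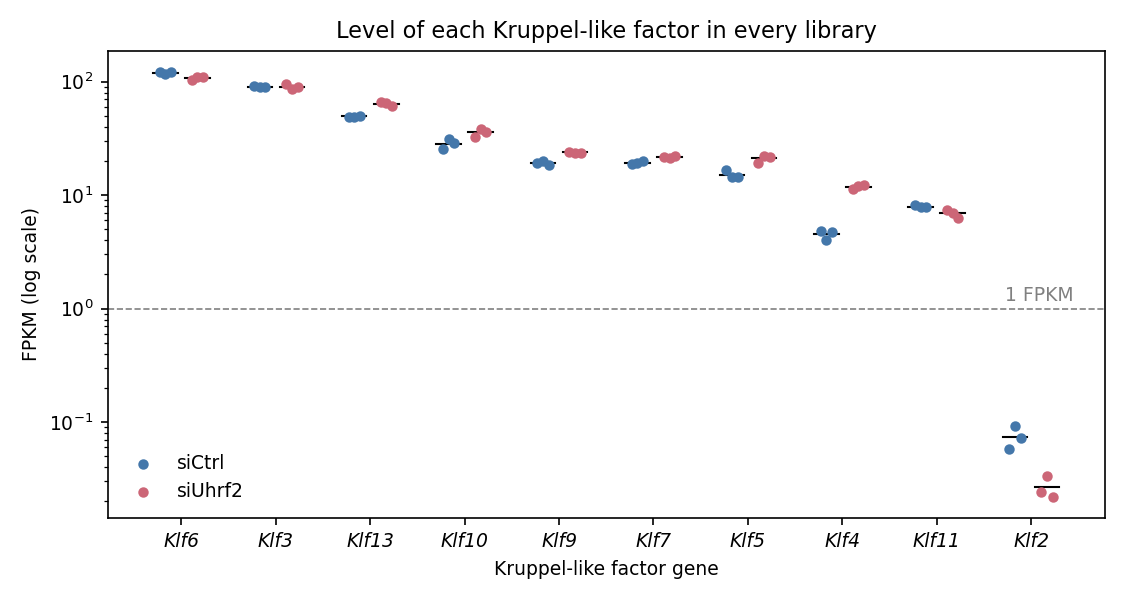
FPKM (log axis) of the 10 Kruppel-like factors in each of the 3 siCtrl (blue) and 3 siUhrf2 (red) libraries, with short black lines at group means and the dashed line at 1 FPKM. Klf4 moves from below to above Klf11, and Klf2 lies far below the other 9 genes in both groups.

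The summed level of the 10 genes was 355, 352 and 356 FPKM in the siCtrl libraries and 381, 384 and 384 FPKM in the siUhrf2 libraries. The groups did not overlap, and the difference of 28.6 FPKM was larger than the spread between replicates (exact two-sided permutation p = 0.10, the smallest that 3 against 3 libraries allow). Klf6 made up 33.8 ± 0.488% of the sum in siCtrl and 28.2 ± 0.804% in siUhrf2 (SD, n = 3). Klf13 went from 13.9 ± 0.0806% to 16.7 ± 0.723% and Klf4 from 1.28 ± 0.124% to 3.10 ± 0.118% of the sum. Klf3 held 25.5 ± 0.380% and 23.5 ± 1.26%. The shares of Klf7 and Klf10 overlapped between the groups (exact permutation p = 0.20 for each).

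**Figure D2:**
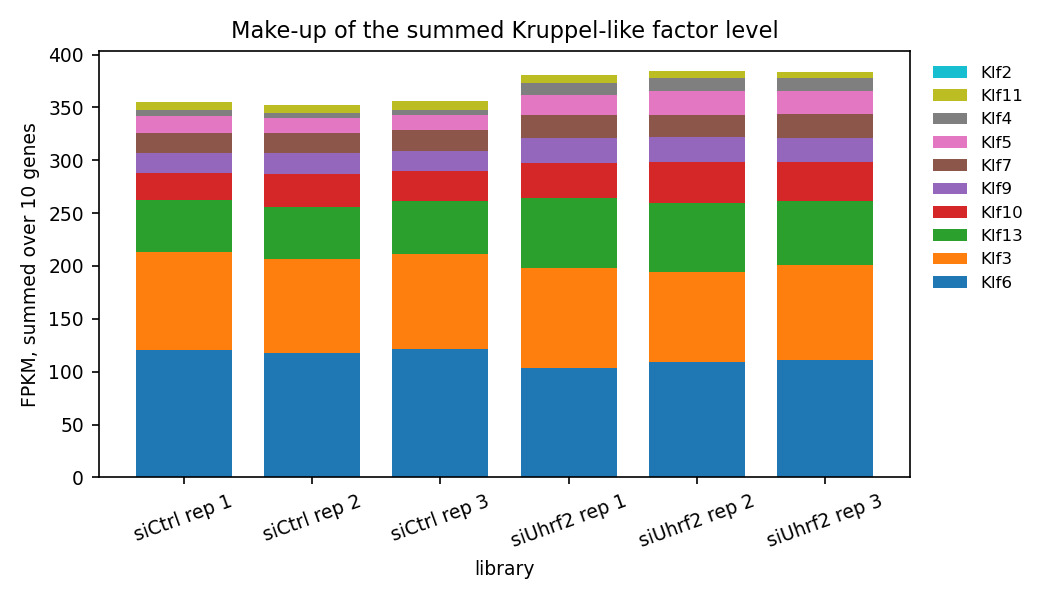
FPKM summed over the 10 Kruppel-like factors in each library, with each gene as a coloured segment of the bar. The 3 siCtrl bars end between 352 and 356 FPKM and the 3 siUhrf2 bars between 381 and 384. In siUhrf2 the Klf6 and Klf11 segments are smaller, and those of Klf13, Klf4, Klf10, Klf5, Klf9 and Klf7 are larger.

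Most members differed between the groups, by small amounts except for Klf4. Differences were tested on log2(normalized count + 1) with limma over all 11343 genes at a mean of at least 1 FPKM, with calls at an adjusted p (Benjamini-Hochberg) below 0.05. Of the 10 genes, 9 were tested, 8 were called and 1, Klf3, did not pass, where 61.0% of all tested genes were called. There were 6 rises and 2 falls, against 29.9% of all tested genes called higher and 31.1% called lower. The groups did not overlap in 8 of the 9 tested genes, as in 66.7% of all tested genes. The median log2 difference was 0.32 over the 9 genes and -0.01 over all tested genes. Against a change of 1.5-fold (limma treat), Klf4 passed and the other 8 did not, while 3.02% of all tested genes passed.

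**Figure D3:**
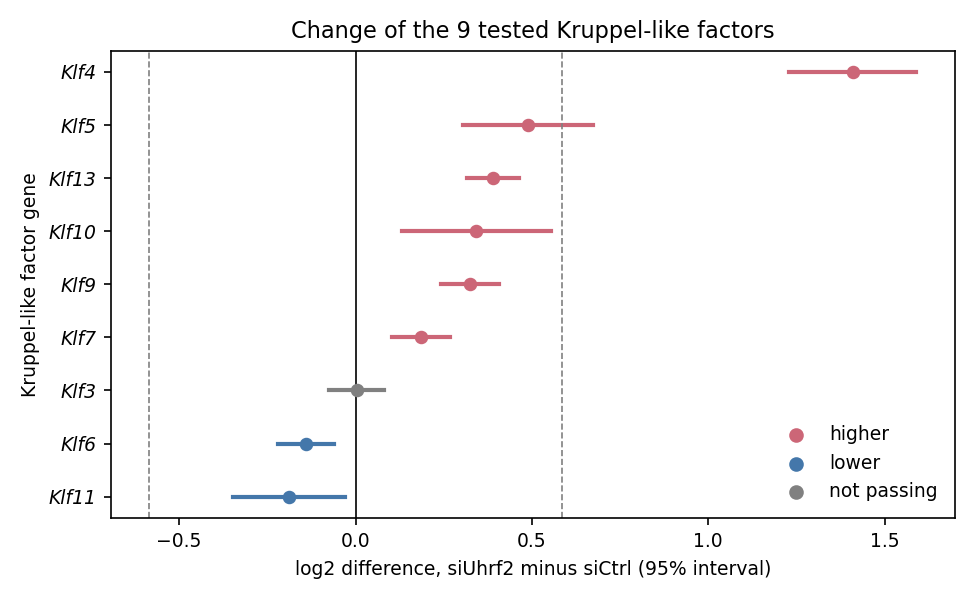
log2 difference between siUhrf2 and siCtrl for the 9 tested Kruppel-like factors, with 95% intervals from limma as horizontal lines and dashed lines at a change of 1.5-fold in either direction. The whole interval of Klf4, 1.23 to 1.59, lies beyond the upper dashed line, and that of Klf3 spans 0.

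Among the acetyltransferase-linked members, 3 of 4 tested genes rose and 1 fell, where 29.9% of all tested genes were called higher and 31.1% lower. Klf4, a factor of epithelial barrier differentiation and growth arrest and one of the reprogramming factors, is on chromosome 4 (55527143 to 55532466, minus strand) (GRCm38, GENCODE M21). It had 346, 288 and 339 normalized counts in siCtrl and 813, 868 and 901 in siUhrf2, so that every siUhrf2 library held more than any siCtrl library. The means were 324 ± 31.8 and 861 ± 44.4 (SD, n = 3), a 2.66-fold rise (log2 change 1.41, SE 0.083, limma adjusted p = 9.82e-08). Only 1.07% of all tested genes had a larger log2 difference in either direction.

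Klf4 rose relative to each of the other 8 tested members within a library. This follows from its having the largest log2 difference of the set, so the ratios restate that difference and add no separate support. The difference of the log2 ratio ranged from 0.92 against Klf5 to 1.55 against Klf6, and was larger still against Klf11, which fell, and the groups did not overlap in any of the 8 ratios (exact two-sided permutation p = 0.10 for each, the smallest possible). As FPKM, Klf4 stood at 28.9%, 27.9% and 32.9% of Klf5 in the siCtrl libraries and at 59.5%, 53.5% and 56.8% in the siUhrf2 libraries. Klf4 and Klf5 are both epithelial factors, often described with opposite effects on proliferation in the gut.

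Klf5, which promotes proliferation in many epithelia, is on chromosome 14 (99298691 to 99315036, plus strand). It had 2524, 2179 and 2171 normalized counts in siCtrl and 2883, 3424 and 3347 in siUhrf2. The groups were separate, but replicate 1 was the highest siCtrl library and the lowest siUhrf2 library. The rise was 1.40-fold (log2 change 0.49, SE 0.080, limma adjusted p = 0.000912). Klf7, a factor known from neuron differentiation and adipocytes, is on chromosome 1 (64029447 to 64122282, minus strand). It went from 2940.3, 3022 and 3149 to 3425, 3402 and 3529 normalized counts, a rise of 1.14-fold (limma adjusted p = 0.00124). Every siUhrf2 library was above every siCtrl library, by a gap wider than the range within either group.

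Klf6, described as a zinc finger factor of stellate cells and a growth suppressor, was the most abundant member and fell. It is on chromosome 13 (5861482 to 5870394, plus strand). Its normalized counts were 11989, 11752 and 12162 in siCtrl against 10339.7, 11039 and 11232 in siUhrf2. All 3 siUhrf2 libraries were below all 3 siCtrl libraries, and the log2 change was -0.14 (SE 0.037, limma adjusted p = 0.00594). Klf2, a factor of endothelial quiescence induced by shear stress, is on chromosome 8 (72319033 to 72321656, plus strand) and was too low to be tested. The normalized counts of Klf2 divided by what 1 read was worth in each library gave 5, 9 and 7 reads in siCtrl and 2, 3 and 2 in siUhrf2, which are whole numbers. These few reads did not overlap between the groups, but without the filter on low values Klf2 did not pass either (limma adjusted p = 0.12). Of 4 endothelial markers, Pecam1, Cdh5 and Kdr were at 0.0649, 0.00156 and 0.00312 FPKM on average, and Egfl7 was at 2.95 FPKM with a log2 difference of -0.07 (limma adjusted p = 0.738).

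Klf3, the CtBP-binding repressor of the set, is on chromosome 5 (64803388 to 64832901, plus strand). It had 8423, 8249 and 8237 normalized counts in siCtrl and 8643, 7969 and 8372 in siUhrf2, with overlapping groups. The log2 difference was 0.00 (SE 0.035, 95% interval -0.07 to 0.08, limma adjusted p = 0.938), and its sign turned when libraries were scaled to equal sums, under quantile normalization, on FPKM and without any 1 of 4 libraries. A lowly expressed antisense gene, Gm20033, overlaps the start of Klf3, at 0.569 FPKM on average. Use of strand in the counting is unknown here, so reads from the short stretch that they share cannot be told apart. C230096K16Rik, on the same strand, also overlaps Klf3, at 0.398 FPKM. Genes on the opposite strand overlap Klf13 (Gm27252 at 0.201 FPKM and E030018B13Rik at 0) and Klf7 (Gm13748 at 0). Gm26649, also opposite to Klf7, has no value among the deposited genes, so its level is unknown.

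The Sin3-binding members of the set had 3 rises and 1 fall among 4 tested genes. Of all tested genes, 29.9% were called higher and 31.1% lower. Klf16, which also binds Sin3 but lies outside the set, did not pass. Klf13, known from immune cells and heart, is on chromosome 7 (63886351 to 63938915, minus strand). It went from 5030.1, 5057 and 5120.4 to 6762, 6786 and 6386 normalized counts, with all siUhrf2 libraries above all siCtrl libraries. The means of 5069 ± 46.3 and 6644 ± 224 (SD, n = 3) gave a 1.31-fold rise (log2 change 0.39, SE 0.034, limma adjusted p = 2.06e-06). In FPKM its gain was larger than that of any other member.

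Klf9, a factor induced by glucocorticoid and thyroid hormone, is on chromosome 19 (23141226 to 23168134, plus strand). It had 2603, 2716 and 2539.9 normalized counts in siCtrl, against 3277, 3284.5 and 3274 in siUhrf2. The 3 siUhrf2 values differed by little, with a coefficient of variation of 0.160% against 3.41% in siCtrl. That is less than counting 3002 to 3253 estimated reads would give, so it is not read as a trait of the gene. The rise was smaller than that of Klf13 (log2 change 0.32, SE 0.037, limma adjusted p = 1.71e-05). Klf10, also called TIEG1, an early gene of the TGF-beta response, is on chromosome 15 (38291463 to 38300706, minus strand). It had 1956, 2424 and 2224 normalized counts in siCtrl and 2522, 3001 and 2842 in siUhrf2. Replicate 1 was the lowest library in both groups, and the groups were separated by a gap smaller than the range within either of them. The rise was 1.27-fold (log2 change 0.34, SE 0.090, limma adjusted p = 0.0123).

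Klf11, also called TIEG2, a relative of Klf10 that represses transcription, is on chromosome 12 (24651274 to 24662789, plus strand). It went from 575, 553 and 556 to 526, 500.1 and 454 normalized counts, so that the groups were separate. The log2 change was -0.19 (SE 0.072, limma adjusted p = 0.0398). This call did not hold without siCtrl replicate 1, 2 or 3 (adjusted p = 0.0975, 0.0697 and 0.0808), without siUhrf2 replicate 2 or 3 (0.0677 and 0.168), or under 3 of 4 other scalings (0.0565 to 0.0846). Over all alternatives other than the test against 1.5-fold and the stricter threshold, Klf4, Klf5, Klf6, Klf7, Klf9, Klf10 and Klf13 kept their calls and directions.

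**Figure D4:**
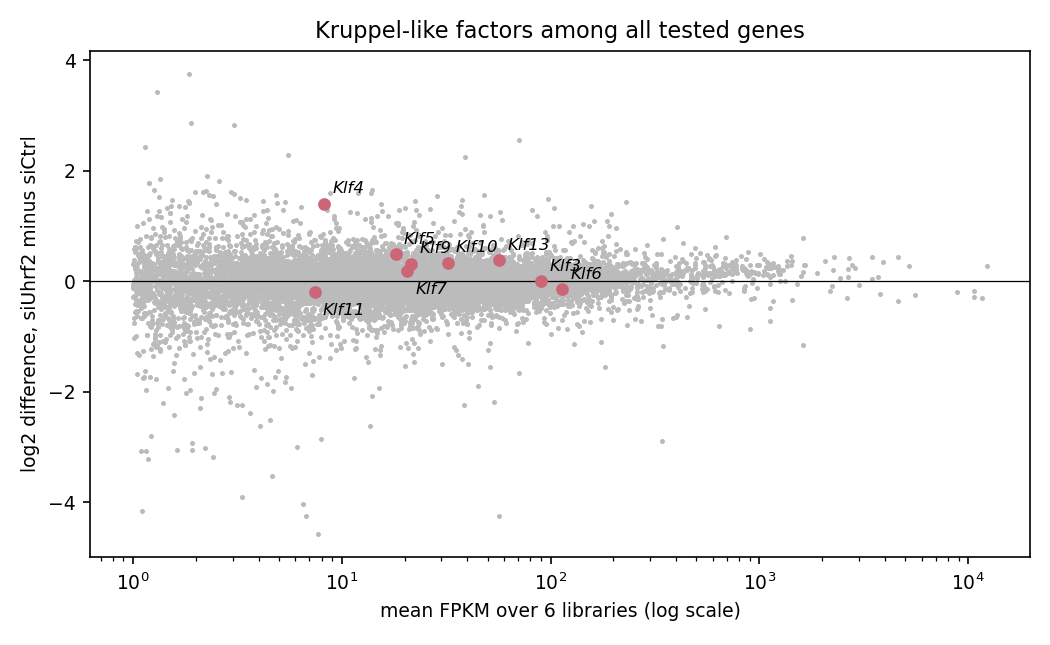
log2 difference between siUhrf2 and siCtrl against mean FPKM (log axis) for all 11343 tested genes (grey) with the 9 tested Kruppel-like factors in red. Klf4 lies at 1.41, a size that 1.07% of genes exceed, and the other 8 lie between -0.19 and 0.49.

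Short-lived transcripts often carry AU-rich elements, and the Kruppel-like factors are known as rapidly regulated genes. The pentamer ATTTA was counted in the 3′ untranslated region of the transcript with the longest coding sequence. It occurred in 10 of 10 members and in 66.5% of 10774 tested genes with such a region, whose median length was 963 bases. Its density was 2.87 per kb in Klf7, 2.68 in Klf10 and 2.48 in Klf9, against 1.02 in Klf4 and 0.582 in Klf13, and the median of tested genes was 1.26. Of the members, 8 were above that median, and the strongest riser, Klf4, and Klf13 were the 2 below it. The untranslated regions ranged from 737 bases in Klf2 to 6266 in Klf7. All but that of Klf2 were longer than the median of tested genes, and a longer region is more likely to hold the pentamer. Transcript stability was not measured.

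Of 16 other SP and KLF genes 5 were tested, and 2 rose, 0 fell and 3 did not pass. The SP factors Sp4 and Sp2 rose by 0.64 and 0.32 on the log2 scale (limma adjusted p = 4.82e-05 and 0.000749), from 287 ± 19.5 to 446 ± 22.3 and from 913 ± 69.0 to 1139 ± 27.8 normalized counts (SD, n = 3). Sp1 and Sp3, the broadly expressed GC-box activators, had log2 differences of 0.03 and 0.07 (limma adjusted p = 0.424 and 0.106) at 62.9 and 39.3 FPKM. Klf16, a further Sin3-binding member, had a difference of -0.14 (limma adjusted p = 0.101), which passed without siUhrf2 replicate 3 (adjusted p = 0.0161).

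Genes of these lists are read against the 61.0% of all tested genes that were called, 29.9% higher and 31.1% lower. Among 11 corepressor and coactivator genes there were 4 rises and 3 falls, and 4 did not pass, with a median log2 difference of -0.05, a share called near that of all genes. The Sin3 scaffold gene Sin3a rose 1.21-fold while its paralog Sin3b had a log2 change of -0.24. Hdac2, a deacetylase of these complexes, rose 1.27-fold, and Kat2b, which encodes the acetyltransferase PCAF, went from 3219.6 ± 79.7 to 2149 ± 57.8 normalized counts (log2 change -0.58, limma adjusted p = 2.72e-07). Of 8 genes acting on the stability of Kruppel-like factor proteins 3 fell, 1 rose and 4 did not pass. The F-box gene Fbxo32 and Vhl had log2 changes of -0.29 and -0.21. Bap1, a deubiquitinase gene, at -0.09 (adjusted p = 0.0422) lost its call without any 1 library other than siCtrl replicate 1 (0.0520 to 0.144). Wwp1, a ligase of Klf2 and Klf5, at 0.12 (0.0346) lost it without siCtrl replicate 2 or 3 or siUhrf2 replicate 2 or 3 (0.0534 to 0.149). The count of 4 called genes in that list was 2 without each of the same 4 libraries. Bap1 also lost its call under 3 of 4 other scalings (limma adjusted p = 0.0842 to 0.105), without a filter (0.116) and without trend and robust variances (0.0669). For Wwp1 the same held with equal library sums (0.0597), on FPKM (0.135), without a filter (0.0610) and without trend and robust variances (0.0581).

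The MEK5-ERK5-MEF2 route, which induces Klf2 and Klf4 in endothelial cells, was represented by 7 genes. Of these 6 were tested, 5 fell, 0 rose and 1 did not pass, where 31.1% of all tested genes were called lower. The median log2 difference was -0.22 against -0.01 over all tested genes, 0 of the 6 passed the test against 1.5-fold, and Mef2c was listed at 0. The upstream kinase gene Map3k3 had a log2 change of -0.38, Map3k2 -0.17, and the transcription factor genes Mef2a and Mef2d -0.31 and -0.27 (limma adjusted p = 1.80e-05, 0.00633, 7.27e-06 and 9.16e-05).

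Genes reported as targets of Kruppel-like factors in other cells did not all move in one direction. Among 14 reported activated targets 7 were tested, of which 5 rose, 2 fell and 0 did not pass. Their median log2 difference was 0.45, against -0.01 over all tested genes, of which 29.9% were called higher. Krt19, a keratin gene with Klf4 sites, went from 13091 ± 853 to 25943 ± 1592 normalized counts, and Cdh1, the E-cadherin gene, rose 1.43-fold. The p21 gene Cdkn1a, an activated target of Klf4 and Klf6, had a log2 change of -0.45, and Plau, the urokinase gene, -0.77. Among 9 reported repressed targets 6 were tested, 3 rose, 1 fell and 2 did not pass, with a median log2 difference of 0.21. Lgals3, which encodes galectin 3 and is reported as repressed by Klf3, rose by 0.58 on the log2 scale. Klf3 mRNA did not detectably differ, and a link between these genes was not tested. Smad7, repressed by Klf10, rose 1.24-fold, Ccnb1 1.15-fold, and Ccne1 had a log2 change of -0.30. These lists were drawn up with earlier results of these data known.

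**Figure D5:**
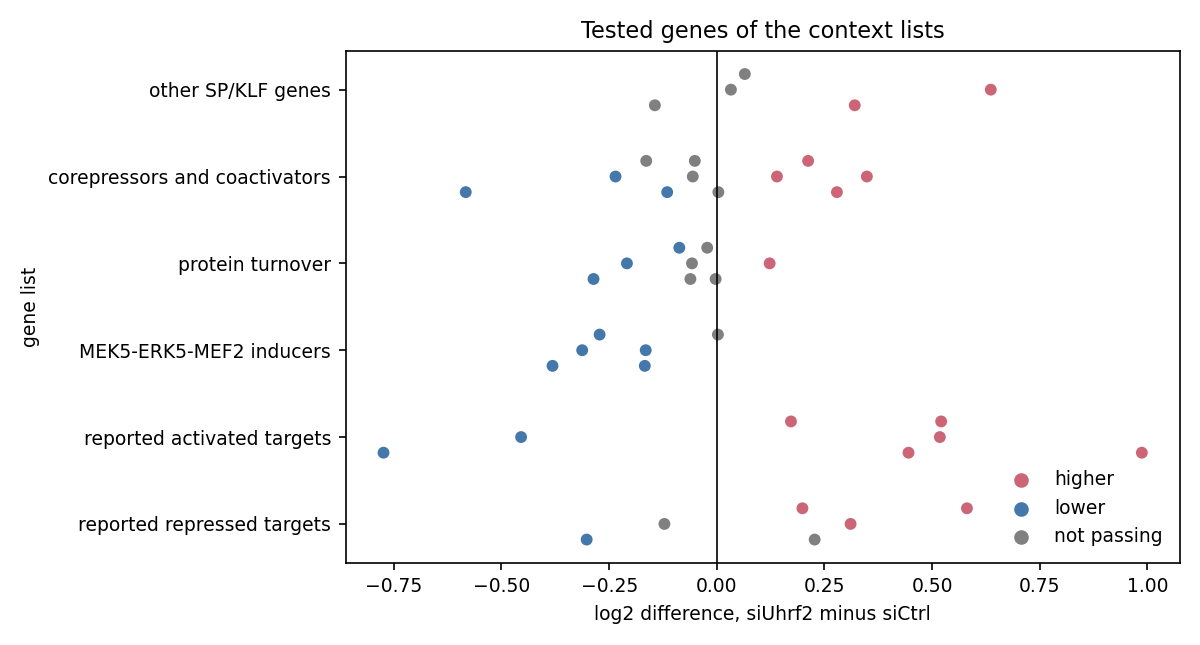
log2 difference between siUhrf2 and siCtrl of every tested gene in 6 lists around the Kruppel-like factors, 1 point a gene, coloured by whether limma called it higher (red), lower (blue) or neither (grey). In the MEK5-ERK5-MEF2 list all 5 called points lie below 0, and both target lists hold called points on either side of 0.

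Of 9067 other genes at a mean of at least 5 FPKM, those with the profile nearest to Klf4 over the 6 libraries were Mettl7b, Mfsd4a and Emp1. The measure was the Euclidean distance between centred log2 profiles, at 0.181, 0.242 and 0.270. Mettl7b, a methyltransferase-like gene, went from 296 ± 17.2 to 729 ± 39.8 normalized counts, and Mfsd4a, a solute transporter gene, from 273 ± 10.2 to 675 ± 46.7 (SD, n = 3). Emp1, an epithelial membrane protein gene, rose 2.83-fold. With 2 groups of 3 libraries this likeness mostly reflects the difference between the groups.

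Uhrf2 was at 8992 ± 82.6 normalized counts in siCtrl, against 2841 ± 88.2 with siUhrf2 (SD, n = 3; log2 change -1.66, limma adjusted p = 7.58e-11), so the targeted gene matched the labels. Estimated depth was 44.6 M to 53.1 M reads per library. Of 6 hepatocyte markers, Hnf4a was at 83.4 FPKM on average, Ttr at 4.84 and Serpina1a at 1.49, whereas Alb, Apoa1 and Cps1 were under 1 FPKM (0.611, 0.132 and 0.0387), so the label hepatocyte rests on few of its defining genes. Of the 3 tested, Serpina1a fell from 2.07 ± 0.316 to 0.914 ± 0.287 FPKM (log2 change -1.18, limma adjusted p = 0.000526), Hnf4a rose by 0.09 on the log2 scale, and Ttr did not pass at -0.83, the median of the list. The summed level of 4 cholangiocyte markers was 302 to 336 FPKM in siCtrl and 552 to 602 in siUhrf2, most of it Krt19, with 2 genes higher, 1 lower and Epcam listed at 0. The 4 fibroblast or stellate markers summed to 12.4 to 16.1 and 1.58 to 2.49 FPKM. That drop lay in Postn, the 1 tested gene, at 12.8 ± 1.96 and 0.716 ± 0.367 FPKM, which passed the filter only through siCtrl. Col1a1 was at 0.842 and 1.05 FPKM, Des at 0.165 and 0.178, and Pdgfrb at 0.00847 and 0.00126, none of them tested. The 4 leukocyte markers summed to 7.43 to 9.18 and 2.92 to 3.79 FPKM, with Csf1r and Cd68 lower, Adgre1 listed at 0 and Ptprc at 0.113 FPKM. The 4 endothelial markers summed to 2.92 to 3.39 and 2.22 to 3.37 FPKM, most of it Egfl7, the 1 tested gene, which was not called. The part of these markers in the Kruppel-like factor differences was not tested, and fewer cells of a type and less RNA per cell cannot be told apart in bulk RNA.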

How the data were processed

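Total RNA of 6 AML12 libraries, 3 siCtrl and 3 siUhrf2 by their titles, was sequenced, with each column assigned by its name and 0 columns unused. The authors deposited a normalized count per gene, a signal that is not whole-numbered, and an FPKM value, per the file headers. Kallisto 0.44.0, GRCm38.p6 and edgeR are listed, without roles, per the submitters' processing notes. How transcripts were summed to genes, and whether strand was used, is not stated there. What 1 read was worth was taken as the most frequent low value of a library, and 62.8% to 64.7% of values above 0 were whole reads within 0.01, so no count test was run. Identifiers were matched to GENCODE M21 (35574 of 35709 with a symbol). log2 values were computed here from the deposited normalized counts with a pseudocount of 1, and folds are 2 to the power of log2 differences on that scale, which understates changes of low genes.

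Genes with 1 FPKM or more on average were tested, without covariates, in limma 3.58.1 under R 4.3.3, using statmod 1.5.0 for robust variances and a trend of variance on level. The fit was also run on simulated whole counts with few changed genes and the same dispersion for every gene, unlike these data. That run checks the working of the code only. Single values were tested by exact two-sided permutation. The members, lists and tests were chosen with earlier results of these data known. Named genes are the members, other SP and KLF genes at 1 FPKM or more, up to 4 called genes per list with the smallest adjusted p, the 3 genes nearest to the member with the largest difference, and Uhrf2. Alternatives covered 4 other scalings, the pseudocount, FPKM, the filter, the variance model, the threshold, a replicate block and leaving out each library, which for the summed FPKM was chosen after seeing the data. Genes with close paralogs can share pseudo-aligned reads.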

Additional observations from a re-analysis of the deposited data

How the results depend on the processing

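Leaving out 1 library gave 6010 to 7047 changed genes against 6919, 7 to 8 called Kruppel-like factors against 8, always 6 of them higher and 1 to 2 lower, and 2 to 5 called genes of protein turnover against 4. One lower member in place of 2, with Klf11 lost, was also found with median of ratios, upper quartile or quantile scaling, without a filter on low values and at an adjusted p under 0.01. Protein turnover had 2 called genes without a filter, without trend and robust variances, and at an adjusted p under 0.01. The other SP and KLF genes had 1 call at a mean of 5 FPKM, since Sp4 was then not tested. The cause of the other shifts was not tested. The test against 1.5-fold, which asks for more by construction, called 342 genes, 1 Kruppel-like factor (1 higher, 0 lower), 1 reported activated target and 0 genes of the other 5 lists. At an adjusted p under 0.01 Klf10 was not called either. The difference of the summed FPKM was 27.5 to 29.7 without 1 library.

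Klf3 had log2 differences of -0.0100 with equal library sums, -0.0064 under quantile normalization, -0.0098 on FPKM, and -0.024 to 0.035 when 1 library was left out, all without a call. Sp3 was called with upper quartile scaling (adjusted p = 0.0478). Uhrf2 stayed between -1.69 and -1.64 in all alternatives. The median difference of all tested genes lay between -0.02 and 0.01 under every scaling. Same-numbered replicates deviated together with r of 0.176, 0.236 and 0.0657, each the highest for its library, but not over 0.1 in all 3 pairs, and the labels give no shared origin. With a replicate block 7248 genes and 8 Kruppel-like factors (6 higher, 2 lower) were called, with the adjusted p of Klf5 at 0.0265 and of Klf10 at 4.10e-06, and no member changed its call. Depth limits Klf2, with at most 9 reads in a library, for which no difference could be called.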

Other observations

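Several family members outside the 10 were near silent in both groups. Klf12, a CtBP-binding repressor, was at 65.3 ± 10.6 and 67.3 ± 11.3 normalized counts in siCtrl and siUhrf2 (SD, n = 3), or 0.763 FPKM on average. Klf8, a further CtBP-binding repressor and a reported Klf3 target, was at 26.7 ± 2.25 and 43.9 ± 14.9 normalized counts. Klf15, a factor of hepatic glucose and amino acid metabolism, was at 31.5 ± 6.46 and 50.4 ± 13.4 normalized counts. All 3 were under a mean of 1 FPKM and were not tested. Sp5 and Sp7 were listed at 0 in all 6 libraries.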
